A study of Mus musculus with 39 samples.

Results

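The 8 genes described here encode peptidyl-prolyl isomerases of the endoplasmic reticulum (ER). They are the FKBPs Fkbp2, Fkbp7, Fkbp9, Fkbp10, Fkbp11 and Fkbp14 and the cyclophilins Ppib and Ppic. They were taken by gene symbol from the 24421 symbols of the deposited count table and all 8 passed the filter on low counts, which left 21752 genes tested. RNA came from MIN6, an insulin-secreting line grown from an insulinoma of a mouse with a viral oncogene under the insulin promoter, whose cells divide far more than β cells in the islet. The 13 groups were untreated cells at 0 h (baseline) and cells held for 1, 2, 6 or 24 h in DMSO at 0.1%, SW016789 at 5 µM or thapsigargin at 100 nM. Each of the 3 independent experiments gave 1 library per group, and additions were staggered so that all cells of an experiment were collected together. SW016789 is a small molecule that raises insulin secretion at first. With longer exposure, which covers the later times sampled here, the study describes an inhibited secretory response to glucose. Thapsigargin, which blocks the pump that fills the ER with Ca2+, served as the ER stress control.

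Proteins made on the ER are threaded into its lumen unfolded, and rotation of the peptide bond before each proline is a slow step of their folding. Prolyl isomerases speed up that step. FKBPs bind the drug tacrolimus and cyclophilins bind cyclosporin, which gave both families their names. In β cells the main cargo is proinsulin, and FKBP2 has been tied to its folding. Other ER members are best known from cells that secrete collagen, where cyclophilin B sits in a complex with the prolyl hydroxylase P3h1 and Crtap. When unfolded protein builds up, the sensors IRE1, PERK and ATF6 start the unfolded protein response, whose transcription factors XBP1, ATF4 and ATF6 raise many ER chaperones.

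Libraries held 9150443 to 47616080 counts on genes, with a median of 32153770. Baseline cells expressed the markers of β cells, with Ins2 at 10885 ± 1042, Iapp at 11518 ± 878 and Pdx1 at 415 ± 26.5 CPM (counts relative to the library's total after TMM scaling, SD, n = 3). The share of reads in intergenic regions was 6.17% to 36.6% (median 7.55%) and exceeded 25% in 6 libraries, namely SW016789 experiment 1 at 1 h and 6 h and thapsigargin experiment 2 at 1 h, experiments 1 and 3 at 2 h and experiment 2 at 6 h. No DMSO, baseline or 24 h library was among them. Among 1731 genes with a median of 0.5 to 2 CPM, the DMSO 2 h library of experiment 2 had 1176 without a read and that of experiment 3 had 456, against at most 167 in every other library. Called values of the 8 genes at 6 h are also given without the 6 libraries above 25%. Leaving these 6 out keeps only the library of experiment 2 for thapsigargin at 2 h. In bulk RNA, fewer cells of a type and less RNA per cell cannot be told apart.

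In untreated cells Ppib, cyclophilin B, stood highest when counts were set against exonic length, at 118.2 ± 6.53 CPM per kb (SD, n = 3). Fkbp9, an FKBP with several isomerase domains, followed at 49.7 ± 3.12 CPM per kb. Fkbp2 stood at 41.5 ± 1.93 CPM per kb. The collagen-binding Fkbp14 lay at 9.86 ± 0.277 CPM per kb and the membrane-anchored Fkbp11 at 6.96 ± 1.02 CPM per kb. Fkbp7, a binding partner of the chaperone BiP, had 2.39 ± 0.996 CPM per kb. The lowest were Ppic, cyclophilin C, at 0.897 ± 0.269 CPM per kb and Fkbp10, an FKBP of collagen-secreting cells, at 0.434 ± 0.276 CPM per kb. The 3 baseline libraries of neighbours in this order did not overlap, except for Ppic and Fkbp10.

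**Figure D1:**
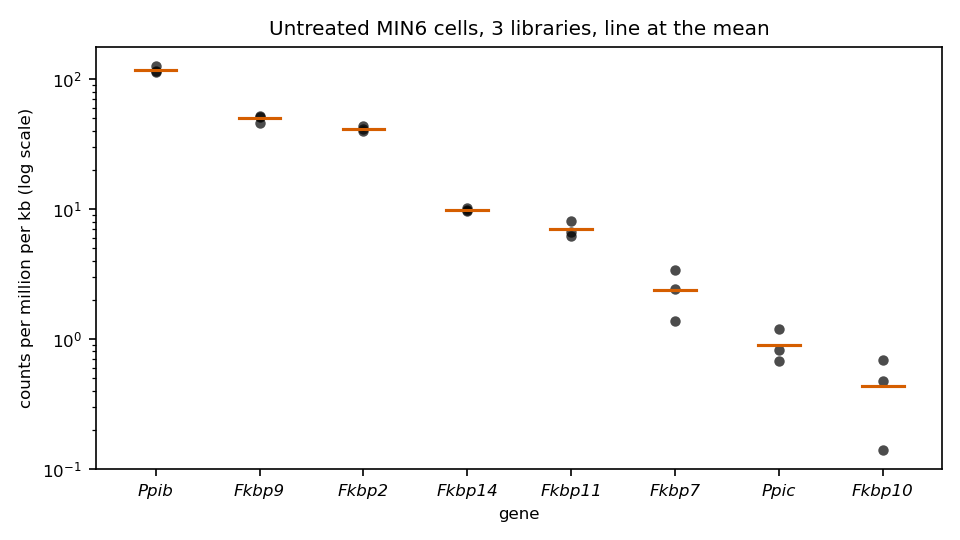
Levels of the 8 genes in untreated MIN6 cells, in CPM per kb of exon on a log scale, with 1 point per library (n = 3) and a line at the mean. Ppib sits highest at a mean of 118.2, and Fkbp10 lowest at 0.434.

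All 8 genes are on separate loci in mm10 and coordinates run from the first to the last base given for each gene with the counts. The RefSeq starts of Fkbp14 used below, at 54593174 and 54597344, lie beyond the end printed here. Fkbp2 (Entrez 14227) spans chr19:6977739-6980461, Fkbp7 (14231) chr2:76663034-76673098, Fkbp11 (66120) chr15:98724368-98728198, Fkbp14 (231997) chr6:54577605-54593128 and Ppic (19038) chr18:53406341-53418007, all on the minus strand. Fkbp9 (27055) lies at chr6:56832059-56879360, Fkbp10 (14230) at chr11:100415694-100424840 and Ppib (19035) at chr9:66060169-66066629, all on the plus strand. Ppib shares 1454 bases with Snx22 and Fkbp10 shares 2520 bases with Nt5c3b, each on the minus strand. The counting took strand into account, as the study's methods state it.

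Against DMSO of the same time, SW016789 raised 3 of the 8 genes at 6 h, where 4.19% of all genes tested were higher and 2.85% lower at an adjusted p below 0.05. They were Fkbp11, Fkbp14 and Ppib. At 24 h it raised 2, Fkbp11 and Ppib, beside 1.95% of all genes higher and 1.06% lower. Thapsigargin raised 1 at 6 h, Fkbp11, and lowered 3, Fkbp9, Ppib and Fkbp14, where 8.06% of all genes were higher and 8.73% lower. After 24 h of thapsigargin 3 were higher, Fkbp11, Ppib and Fkbp2, and 2 were lower, Fkbp9 and Fkbp14, beside 10.1% of all genes higher and 10.7% lower. The median over the 8 genes was 0.68 on the log2 scale for SW016789 at 6 h and 0.42 at 24 h, beside 0.12 and 0.06 over all genes. For thapsigargin it was -0.38 at 6 h and 0.08 at 24 h, beside 0.30 and 0.07 over all genes. Without the libraries above 25% intergenic reads, the medians over all genes were 0.01 and 0.08 for SW016789 and 0.10 and 0.11 for thapsigargin. Those over the 8 include Fkbp7, Fkbp10 and Ppic, which had few reads. Fkbp10 with SW016789 at 6 h dropped to 0.11 without these libraries. SW016789 and thapsigargin were compared with the same DMSO libraries.

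**Figure D2:**
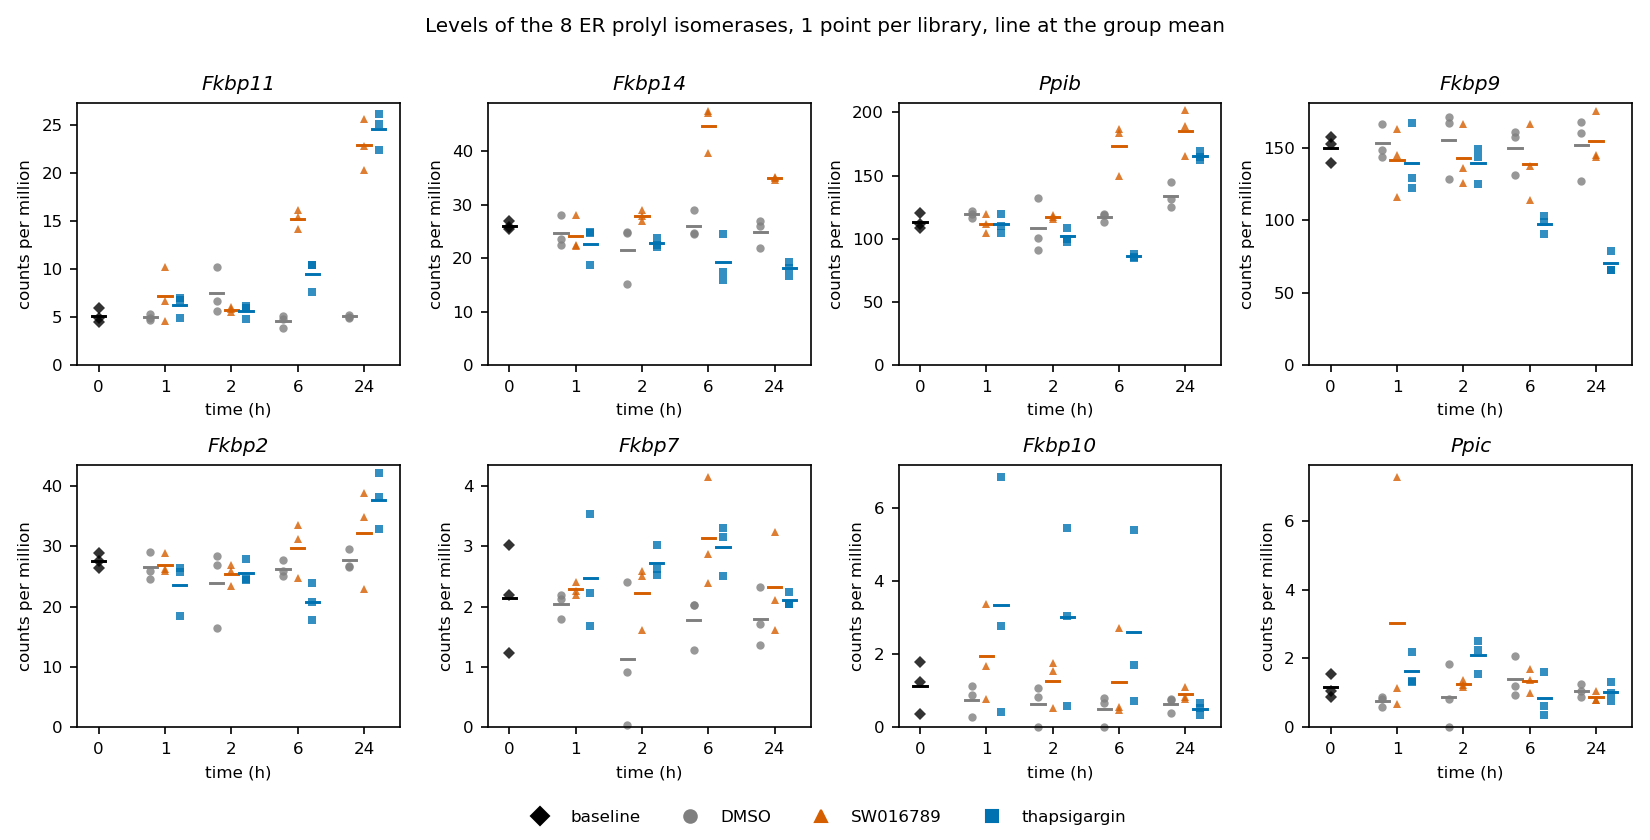
Levels of the 8 genes in CPM against time in hours, with 1 point per library, colour for the treatment and a line at each group's mean (n = 3). Fkbp11 climbs to 20.3 to 26.2 CPM in all 6 treated libraries of 24 h, and Fkbp9 falls to 65.5 to 79.0 CPM with thapsigargin.

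At 1 and 2 h none of the 8 genes passed the test in the main edgeR fit or in DESeq2. Over all genes, 0.372% were called for SW016789 at 1 h and 2.58% at 2 h, and 0.046% and 1.38% for thapsigargin. For SW016789, 2 members had an unadjusted p below 0.05 at 1 h, Fkbp11 and Ppic, and 1 at 2 h, Fkbp14. For thapsigargin 0 members had one at either time with all libraries in the fit. Fkbp14 with SW016789 at 2 h measured 26.9, 27.9 and 29.1 CPM in experiments 1, 2 and 3, against 24.9, 15.2 and 24.7 CPM with DMSO. The log2 fold change was 0.37 ± 0.15 (SE, adjusted p = 0.254) and fell to 0.18 (adjusted p = 0.888) without the DMSO library of experiment 2, which has many genes without a read. Without that of experiment 3 it was 0.54 (adjusted p = 0.236). With the experiment number as a replicate block and the intergenic percent in the fit, it passed (0.43, adjusted p = 0.0274). Without the libraries above 25% intergenic reads, Fkbp11 and Ppic with SW016789 at 1 h had log2 fold changes of 0.16 and 0.23 (adjusted p = 1 for both).

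The values of Fkbp7 at 2 h moved with the DMSO library left out. The gene measured 0.918, 2.41 and 0.0373 CPM with DMSO in experiments 1, 2 and 3, the last from a single read, against 2.58, 2.51 and 1.60 CPM with SW016789 and 2.52, 3.03 and 2.62 CPM with thapsigargin. The log2 fold change was 0.99 ± 0.65 for SW016789 (adjusted p = 0.626) and 1.28 ± 0.66 for thapsigargin (adjusted p = 0.294). Without DMSO of experiment 2 these were 2.23 ± 0.69 (adjusted p = 0.115) and 2.504 ± 0.70 (adjusted p = 0.102), and without DMSO of experiment 3 they were 0.48 (adjusted p = 0.902) and 0.65 (adjusted p = 0.605). With the libraries above 25% intergenic reads left out, they were 1.04 (adjusted p = 0.469) and 1.44, the latter with only the thapsigargin library of experiment 2 left.

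Fkbp11, which is anchored in the ER membrane and is abundant in secretory tissues, had the largest rise among the called members. With DMSO it measured 5.11, 3.81 and 4.82 CPM at 6 h in experiments 1, 2 and 3, and 5.00, 4.94 and 5.25 CPM at 24 h. SW016789 gave 15.4, 16.1 and 14.1 CPM at 6 h and 25.6, 22.8 and 20.3 CPM at 24 h. Every SW016789 library of these times lay above every DMSO library. The log2 fold change was 1.73 ± 0.22 at 6 h (adjusted p = 3.6e-07, edgeR), a 3.32-fold rise, and 2.18 ± 0.22 at 24 h (adjusted p = 1.3e-08), a 4.52-fold rise. With thapsigargin the gene measured 10.4, 10.4 and 7.63 CPM at 6 h and 25.1, 22.3 and 26.2 CPM at 24 h. Its 6 h libraries lay between those of DMSO and SW016789, and its 24 h libraries overlapped those of SW016789. Log2 fold changes were 1.05 ± 0.22 (adjusted p = 5.6e-04) and 2.28 ± 0.22 (adjusted p = 2.1e-10), or 2.07-fold and 4.84-fold. No library left out and no other setting ended these 4 calls, and without the libraries above 25% intergenic reads the values at 6 h were 1.78 and 1.00 (adjusted p = 2.2e-07 and 0.0014).

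Ppib, the highest of the 8 per kb of exon in untreated cells, moved in opposite directions at 6 h. DMSO libraries of 6 h held 118.5, 119.5 and 113.5 CPM. SW016789 took it to 149.8, 184 and 187 CPM, and thapsigargin to 88.2, 85.1 and 85.7 CPM. The 3 groups did not overlap. The log2 fold change over DMSO was 0.57 ± 0.10 for SW016789 (adjusted p = 5.2e-05), a 1.48-fold rise, and fell by 0.44 ± 0.10 on the log2 scale for thapsigargin (adjusted p = 9.6e-04). Without the libraries above 25% intergenic reads these were 0.72 ± 0.11 (adjusted p = 9.2e-06) and -0.42 ± 0.11 (adjusted p = 0.0068). At 24 h the gene was higher with both, at 189.6, 202 and 165 CPM with SW016789 and 162, 164 and 169 CPM with thapsigargin against 131, 145 and 125.2 CPM with DMSO. The log2 fold changes were 0.47 ± 0.09 (adjusted p = 0.0018) and 0.30 ± 0.09 (adjusted p = 0.017). The first missed the threshold without the DMSO library of experiment 3 (0.41, adjusted p = 0.0724), and the second without any of 4 of the 6 libraries compared, DMSO of experiments 1 and 3 and thapsigargin of experiments 2 and 3 (0.22 to 0.34, adjusted p = 0.120 to 0.239).

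Fkbp14, which binds collagen and Ca2+, was higher with SW016789 and lower with thapsigargin. With DMSO it measured 28.99, 24.5 and 24.7 CPM at 6 h. SW016789 gave 39.7, 47.2 and 47.4 CPM at that time, above every DMSO library, with a log2 fold change of 0.78 ± 0.15 (adjusted p = 2.6e-04), or 1.72-fold. With the libraries above 25% intergenic reads left out, it was 0.92 ± 0.17 (adjusted p = 2.2e-04). At 24 h it stood at 34.6, 35.1 and 34.96 CPM against 25.95, 21.9 and 26.9 CPM with DMSO. These groups did not overlap either, but the log2 fold change of 0.49 ± 0.15 missed the threshold (adjusted p = 0.0618). With the experiment number as a replicate block it was 0.49 and passed (adjusted p = 0.0246), and DESeq2 also called it (0.48, adjusted p = 0.0092), as did the fits with its size factors, with the block and intergenic percent and with only the libraries compared (0.47 to 0.50, adjusted p = 0.0051 to 0.0467).

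Thapsigargin libraries held 24.5, 17.5 and 15.8 CPM of Fkbp14 at 6 h, the first of which fell among the DMSO values, and 19.4, 16.7 and 18.2 CPM at 24 h, all below DMSO. The gene fell by 0.42 ± 0.15 on the log2 scale at 6 h (adjusted p = 0.046) and by 0.46 ± 0.15 at 24 h (adjusted p = 0.020). At 6 h the call was lost without any library but that of thapsigargin in experiment 1 (-0.50 to -0.32, adjusted p = 0.0512 to 0.231). Without that one library the value was -0.78 (adjusted p = 0.0034). The call was also lost without the libraries above 25% intergenic reads (-0.34, adjusted p = 0.193), with the block and intergenic percent (-0.26, adjusted p = 0.202), with the size factors of DESeq2 (-0.40, adjusted p = 0.05003) and with only the libraries compared (-0.43, adjusted p = 0.0513). At 24 h it was lost without DMSO of experiment 1 or 3 or thapsigargin of experiment 2 or 3 (-0.47 to -0.41, adjusted p = 0.0549 to 0.225), and again without the libraries above 25% intergenic reads (-0.42, adjusted p = 0.0511).

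Fkbp9 was the member that fell furthest. DMSO libraries gave 131, 158 and 161 CPM at 6 h and 127, 168 and 160.0 CPM at 24 h, and baseline libraries 139, 153 and 157 CPM. With thapsigargin it measured 90.6, 98.5 and 102.5 CPM at 6 h and 65.5, 65.8 and 79.0 CPM at 24 h. All 6 values lay under the lowest value of DMSO or baseline. It fell by 0.63 ± 0.14 on the log2 scale at 6 h (adjusted p = 0.0013), to 0.648 of DMSO, and by 1.11 ± 0.14 at 24 h (adjusted p = 7.4e-08), to 0.463 of DMSO, and both calls held without any 1 library and under every other setting. Without the libraries above 25% intergenic reads the value at 6 h was -0.64 (adjusted p = 0.0028). With SW016789 it measured 113.7, 137 and 166 CPM at 6 h and 145, 143 and 175 CPM at 24 h, within or near the DMSO range. The log2 differences from DMSO were -0.11 ± 0.14 (adjusted p = 0.701, interval of 2 SE from -0.39 to 0.17) and 0.03 ± 0.14 (adjusted p = 1, interval from -0.25 to 0.31). With the libraries above 25% intergenic reads left out, the 6 h value was 0.07 (adjusted p = 0.986).

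Fkbp2, tied to proinsulin folding, ranged from 16.4 to 42.3 CPM over the 39 libraries and was called in 1 of the comparisons with DMSO. Its DMSO libraries held 25.1, 27.7 and 25.9 CPM at 6 h and 26.6, 29.6 and 26.8 CPM at 24 h. Thapsigargin gave 32.9, 42.3 and 38.2 CPM at 24 h, all above DMSO, with a log2 fold change of 0.45 ± 0.16 (adjusted p = 0.043), or 1.36-fold. That call was lost without any library but thapsigargin of experiment 1 (0.32 to 0.48, adjusted p = 0.0891 to 0.290). At 6 h thapsigargin libraries were lower, at 20.7, 23.9 and 17.7 CPM, but the log2 difference of -0.34 ± 0.16 did not pass (adjusted p = 0.125). SW016789 gave 24.7, 31.2 and 33.5 CPM at 6 h and 34.96, 22.999 and 38.8 CPM at 24 h, groups that overlapped DMSO, with log2 fold changes of 0.19 ± 0.16 (adjusted p = 0.527) and 0.22 ± 0.16 (adjusted p = 0.767). Without the libraries above 25% intergenic reads the 6 h values were -0.44 with thapsigargin (adjusted p = 0.09996) and 0.36 with SW016789 (adjusted p = 0.314).

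**Figure D3:**
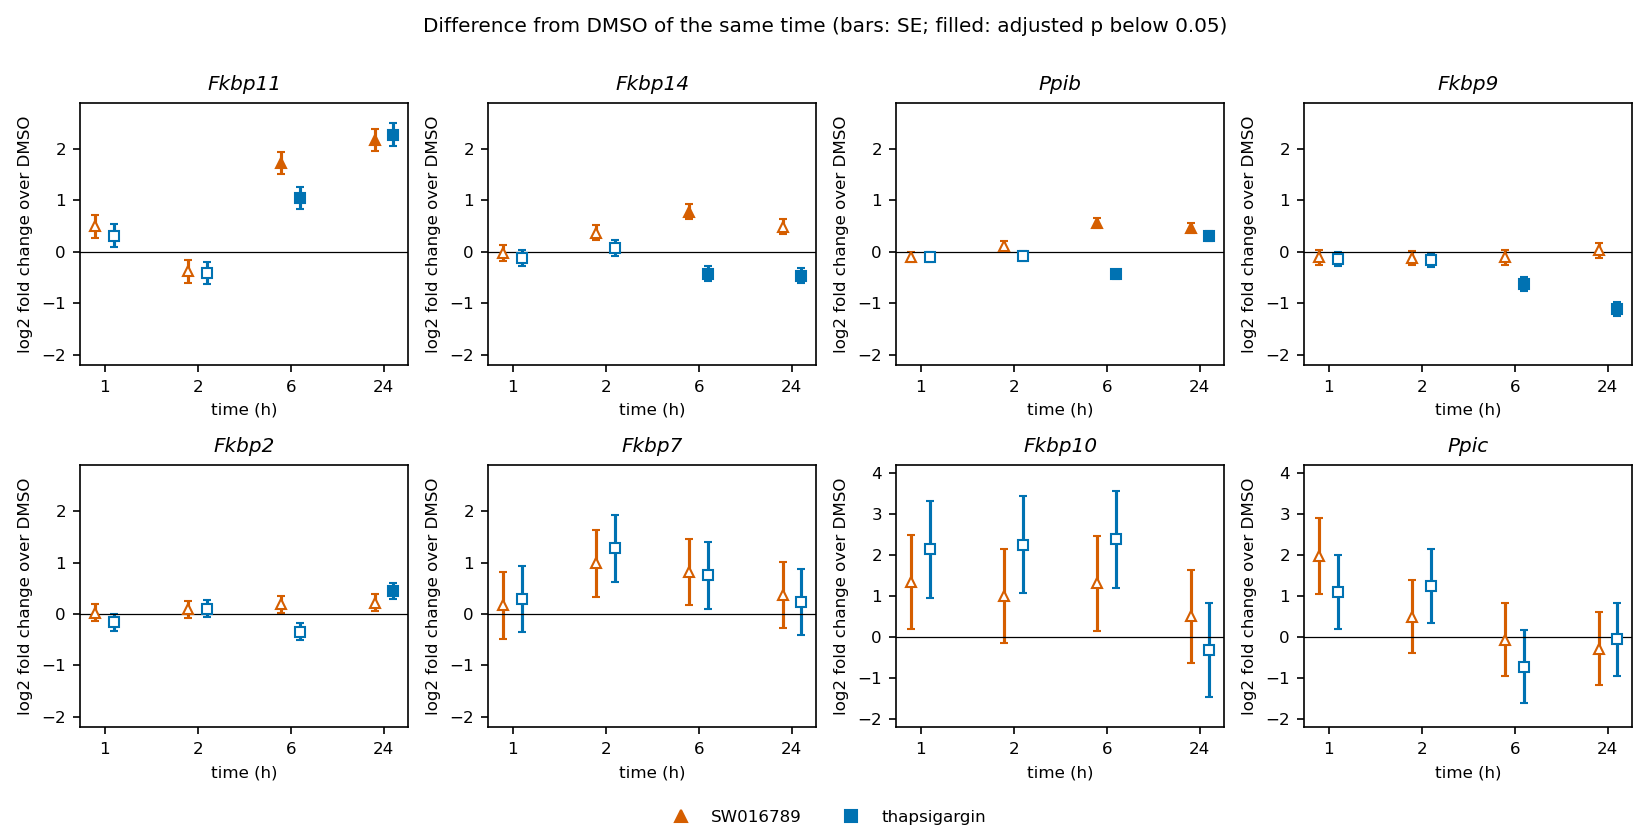
Log2 fold change over DMSO of the same time against time in hours for each gene, with bars of 1 SE and filled symbols where the adjusted p is below 0.05. Fkbp11 reaches 2.18 with SW016789 and 2.28 with thapsigargin at 24 h, while Fkbp9 falls to -1.11 with thapsigargin and stays near 0 with SW016789.

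Fkbp7, Fkbp10 and Ppic had few reads, and none passed the test against DMSO at any time. Fkbp7 ranged from 0.0373 CPM, a single read in the DMSO 2 h library of experiment 3, to 4.14 CPM. At 6 h its DMSO libraries held 1.28, 2.03 and 2.02 CPM, those of SW016789 2.38, 2.87 and 4.14 CPM and those of thapsigargin 3.31, 3.15 and 2.51 CPM. Both treated groups lay above DMSO without overlap, but the log2 fold changes of 0.82 ± 0.64 and 0.75 ± 0.64 did not pass (adjusted p = 0.478 and 0.383), nor did the 1.03 and 0.72 found without the libraries above 25% intergenic reads (adjusted p = 0.543 and 0.471). At this depth the interval of 2 SE ran from -0.47 to 2.11 for SW016789, which holds both no change and the 1.73 of Fkbp11.

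The highest Fkbp10 values came from libraries rich in intergenic reads. It measured 6.85 CPM in thapsigargin experiment 2 at 1 h, 5.45 CPM in experiment 3 at 2 h and 5.40 CPM in experiment 2 at 6 h, all above 25% intergenic. In baseline and DMSO libraries it ranged from 0 to 1.79 CPM, with no read in DMSO of experiment 2 at 2 h and of experiment 1 at 6 h. The fitted log2 difference of thapsigargin from DMSO at 6 h was 2.38 ± 1.19 (adjusted p = 0.135) and dropped to 1.24 without the 6 libraries above 25%. For SW016789 at 6 h it was 1.31 ± 1.16 (adjusted p = 0.539) and dropped to 0.11. Ppic likewise reached 7.26 CPM in SW016789 experiment 1 at 1 h, the library with the highest intergenic share, beside 1.14 and 0.664 CPM in experiments 2 and 3. Its log2 difference from DMSO at 1 h was 1.98 ± 0.92 (adjusted p = 0.306) and 0.23 without those libraries.

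Markers of stromal cells, a main site of Fkbp10 in tissue, also ranged more widely in treated libraries of 1 to 6 h than in DMSO. Summed over 14 genes they ranged from 16.98 to 50.2 CPM in DMSO libraries of 1 to 6 h, 21.1 to 188 CPM with SW016789, 21.7 to 127 CPM with thapsigargin and 20.9 to 30.7 CPM in all 24 h libraries. The 188 and 127 CPM were reached at 1 h, in the groups that hold the libraries with 36.6% and 33.2% intergenic reads. Libraries of 24 h had at most 9.09%. Of the 14, 0 were called against DMSO at 6 or 24 h, where the shares of all genes higher or lower ran from 1.06% to 10.7%. For thapsigargin 5 were called in a test of the 4 times together, a share near the 29.8% of all genes. Lum had no read in 22 of 39 libraries. Markers of other cells were summed in the same way. Over 12 genes of endothelial and immune cells the sums were 0.208 to 13.9 CPM in DMSO libraries of 1 to 6 h, 3.68 to 54.9 CPM with SW016789 and 9.51 to 43.4 CPM with thapsigargin. Over 15 acinar and ductal genes they were 84.8 to 124.3 CPM, 98.2 to 167.5 CPM and 92.04 to 156.9 CPM. Of these genes, Krt7 alone measured 75.7 to 168.2 CPM over the 39 libraries, with a median of 105.2 CPM. At 24 h the acinar and ductal sums were 151.3 to 180.5 CPM with SW016789, 107.96 to 128.8 CPM with DMSO and 103.8 to 119.02 CPM with thapsigargin. The medians of fitted log2 differences at 6 h, which rest on few reads, were 1.00 for stromal, 2.19 for endothelial and immune and 2.95 for acinar and ductal genes with SW016789, and 1.86, 2.89 and 4.22 with thapsigargin. The part of these reads in the values of Fkbp10 and Ppic was not tested.

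**Figure D4:**
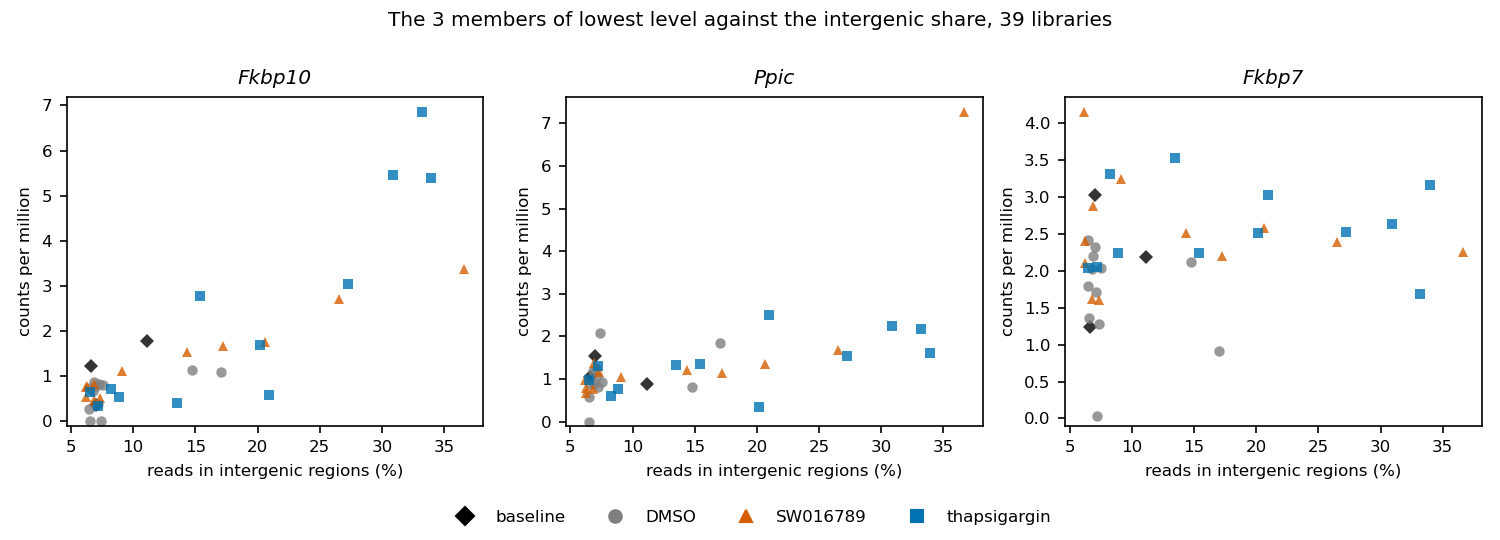
Levels of Fkbp7, Fkbp10 and Ppic in CPM against the percent of reads in intergenic regions, with 1 point for each of the 39 libraries and colour for the treatment. The 3 highest Fkbp10 libraries (5.40 to 6.85 CPM) and the highest Ppic library (7.26 CPM) all lie above 25% intergenic reads.

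The treatments were also compared directly at matched times, 4 comparisons for each gene with p-values adjusted over all genes tested. At 6 h, 5 of the 8 genes were higher with SW016789 than with thapsigargin and 0 were lower, where 7.54% of all genes were higher and 4.01% lower. The median over the 8 was 0.60 on the log2 scale, beside -0.15 over all genes. Without the libraries above 25% intergenic reads, the median over all genes was -0.05. Fkbp14 differed by 1.21 ± 0.15 (adjusted p = 3.3e-07), or 2.31-fold, and Ppib by 1.01 ± 0.10 (adjusted p = 1.5e-09), or 2.01-fold. These calls held without any 1 library, and without the libraries above 25% intergenic reads the differences were 1.26 and 1.14 (adjusted p = 1.5e-05 and 2.4e-08).

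The other 3 differences at 6 h were smaller. Fkbp11 differed by 0.68 ± 0.22 (adjusted p = 0.032), Fkbp2 by 0.53 ± 0.17 (adjusted p = 0.029) and Fkbp9 by 0.52 ± 0.14 (adjusted p = 0.011). The call of Fkbp11 was lost without SW016789 of any experiment or thapsigargin of experiment 3 (0.56 to 0.75, adjusted p = 0.0509 to 0.172). That of Fkbp2 was lost without SW016789 of experiment 2 or 3 or thapsigargin of experiment 3 (0.44 to 0.52, adjusted p = 0.160 to 0.232). That of Fkbp9 was lost without SW016789 of experiment 2 or 3 (0.40 to 0.55, adjusted p = 0.0860 to 0.271). All 3 were lost with only the libraries compared (adjusted p = 0.0532, 0.0788 and 0.0848 for Fkbp11, Fkbp2 and Fkbp9). With the libraries above 25% intergenic reads left out, they were 0.78, 0.79 and 0.71 in that order (adjusted p = 0.0279, 0.0042 and 0.0027).

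At 24 h, 2 genes were higher with SW016789 than with thapsigargin, beside 9.78% of all genes higher and 8.26% lower. Fkbp9 differed by 1.14 ± 0.14 (adjusted p = 6.9e-08), or 2.21-fold, and Fkbp14 by 0.95 ± 0.15 (adjusted p = 5.3e-06), or 1.93-fold, and both held without any 1 library. Fkbp11 showed a log2 difference of -0.10 ± 0.21 (adjusted p = 0.883, interval of 2 SE from -0.52 to 0.32) and Ppib one of 0.17 ± 0.09 (adjusted p = 0.292, interval from -0.02 to 0.36). At 1 and 2 h 0 members were called by edgeR or DESeq2, with 0 and 1 at an unadjusted p below 0.05, the latter being Ppib, and 0.11% and 0.667% of all genes called.

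**Figure D5:**
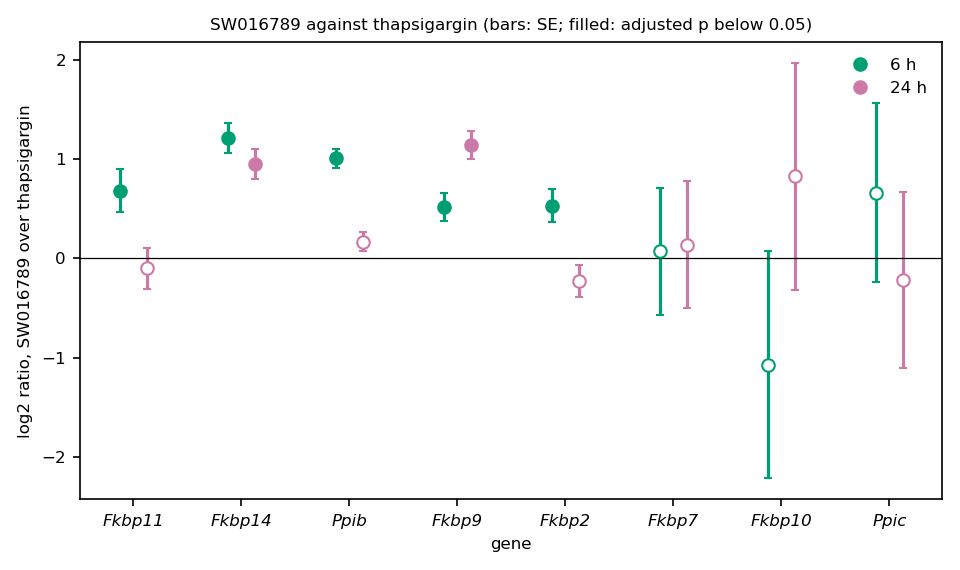
Log2 ratio of SW016789 over thapsigargin for each gene at 6 and 24 h, with bars of 1 SE and filled symbols where the adjusted p is below 0.05. Ppib goes from 1.01 at 6 h to 0.17 at 24 h, and Fkbp9 from 0.52 to 1.14.

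Whether an effect over DMSO changed from a sampled time to the following one was tested as a contrast of its own. Between 1 and 2 h 0 members were called by either tool, with 1, Fkbp11, at an unadjusted p below 0.05 for each treatment, and 0.267% of all genes were called for SW016789 and 0.0644% for thapsigargin. Between 2 and 6 h the effect on Fkbp11 grew by 2.11 ± 0.31 on the log2 scale with SW016789 (adjusted p = 5.4e-05) and by 1.46 ± 0.31 with thapsigargin (adjusted p = 0.0038), where 1.32% and 3.2% of all genes were called. The DMSO 2 h library of experiment 2 held 10.2 CPM of Fkbp11, beside 5.64 and 6.68 CPM in experiments 1 and 3. Without it the increases were 1.82 (adjusted p = 2.9e-04) and 1.17 (adjusted p = 0.0193). Without the libraries above 25% intergenic reads they were 2.12 (adjusted p = 3.65e-05) and 1.63, the latter with 1 thapsigargin library left at 2 h, that of experiment 2. With only the libraries compared, the call for thapsigargin was lost (1.502, adjusted p = 0.217).

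Ppib gained 0.45 ± 0.13 with SW016789 between 2 and 6 h (adjusted p = 0.095), which passed with the replicate block (0.44, adjusted p = 0.0364) and without SW016789 6 h of experiment 1 (0.55, adjusted p = 0.0347), with DESeq2 (0.47, adjusted p = 0.0094) and without the libraries above 25% intergenic reads (0.56, adjusted p = 0.0492). Without the DMSO 2 h library of experiment 2 it was 0.27 (adjusted p = 0.425). Its change with thapsigargin over that step was -0.35 ± 0.14 (adjusted p = 0.190), and passed without the DMSO 2 h library of experiment 2 (-0.54, adjusted p = 0.0125). Fkbp9 changed by -0.46 ± 0.20 with thapsigargin over the same step (adjusted p = 0.269), which passed with the replicate block (-0.46, adjusted p = 0.0118).

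Between 6 and 24 h 0 members were called for SW016789 by edgeR or DESeq2, with 0 at an unadjusted p below 0.05, and 1.45% of all genes were called. Fkbp11 gained 0.44 ± 0.30 (adjusted p = 0.743). With thapsigargin 3 members gained over that step, where 6.28% of all genes were called. Fkbp11 gained 1.22 ± 0.31 (adjusted p = 0.0092), Ppib 0.74 ± 0.14 (adjusted p = 3.0e-04) and Fkbp2 0.79 ± 0.23 (adjusted p = 0.031). The last was lost without any of 8 of the 12 libraries of that contrast (0.70 to 0.93, adjusted p = 0.0536 to 0.107). Without the libraries above 25% intergenic reads the 3 gains were 1.32, 0.77 and 0.92 (adjusted p = 0.0045, 6.8e-04 and 0.0122). Fkbp9 changed by -0.49 ± 0.20 (adjusted p = 0.156), which passed with the replicate block (-0.49, adjusted p = 0.0044), with DESeq2 (-0.54, adjusted p = 0.0435) and with only the libraries compared (-0.48, adjusted p = 0.0443).

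The difference between treatments also changed from 6 to 24 h for 3 members, where 8.38% of all genes were called. That of SW016789 minus thapsigargin fell by 0.84 ± 0.14 for Ppib (adjusted p = 3.7e-05) and by 0.75 ± 0.23 for Fkbp2 (adjusted p = 0.033), and grew by 0.62 ± 0.20 for Fkbp9 (adjusted p = 0.042). Of these, the call of Ppib held without any 1 library. That of Fkbp2 was lost without any of 6 of 12 libraries (-0.84 to -0.56, adjusted p = 0.0826 to 0.145) and that of Fkbp9 without any of 11 of 12 (0.47 to 0.73, adjusted p = 0.0684 to 0.280), and the latter also without the libraries above 25% intergenic reads (0.40, adjusted p = 0.284). Both were lost with only the libraries compared (-0.83, adjusted p = 0.0674 and 0.54, adjusted p = 0.168). With the libraries above 25% intergenic reads left out, the values of Ppib and Fkbp2 were -1.003 and -1.04 (adjusted p = 3.1e-05 and 0.0051). For Fkbp11 the change was -0.78 ± 0.30 (adjusted p = 0.111), which passed without thapsigargin 6 h of experiment 1 (-1.04, adjusted p = 0.0257) and with only the libraries compared (-0.85, adjusted p = 0.0240).

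In a test of the 4 times together, 3 members passed for SW016789, Fkbp11 (adjusted p = 1.4e-10), Ppib (1.0e-05) and Fkbp14 (1.6e-04), beside 9.04% of all genes. For thapsigargin 4 passed, Fkbp11 (6.5e-10), Fkbp9 (1.4e-07), Ppib (6.8e-04) and Fkbp14 (0.018), beside 29.8% of all genes. The largest single-time difference was higher than DMSO for Fkbp11 and lower for the other 3. Fkbp14 missed the threshold without any of 12 of the 39 libraries (adjusted p = 0.0570 to 0.179) and without those above 25% intergenic reads (adjusted p = 0.137). Fkbp2 missed it for thapsigargin (adjusted p = 0.062) but passed with the replicate block (adjusted p = 0.0414), without the libraries above 25% intergenic reads and without any of 6 single libraries (adjusted p = 0.0217 to 0.0479). Fkbp7 passed for thapsigargin without the DMSO 2 h library of experiment 2 (adjusted p = 0.0468), against 0.352 with it.

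DMSO itself was set against the 0 h baseline. None of the 8 genes was called at any of the 4 times by edgeR or DESeq2, with 1 at an unadjusted p below 0.05 at 2 h, Fkbp11, and 1 at 24 h, Ppib. Over all genes 0% were called at 1, 6 and 24 h and 0.00919% at 2 h, and at 1, 2, 6 and 24 h 472, 1881, 427 and 413 genes had an unadjusted p below 0.05. DESeq2 called 5, 89, 11 and 12 genes at these times. Without the DMSO 2 h library of experiment 1, which leaves the sparse libraries of experiments 2 and 3, edgeR called 642 genes at 2 h.

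The 8 genes work beside other folding factors of the ER, whose response is given here for the same libraries. Of 20 other ER chaperones and oxidoreductases, 18 were higher with SW016789 at 6 h and 19 at 24 h, with 0 lower and medians of 1.14 and 0.73 on the log2 scale, beside 0.12 and 0.06 over all genes. With thapsigargin 6 were higher and 2 lower at 6 h (median 0.16) and 17 were higher and 0 lower at 24 h (median 0.71). The medians over all genes were 0.30 and 0.07. Of all genes, 4.19% were higher and 2.85% lower with SW016789 at 6 h, and 1.95% and 1.06% at 24 h. With thapsigargin 8.06% were higher and 8.73% lower at 6 h, and 10.1% and 10.7% at 24 h. The 2 chaperones lowered by thapsigargin at 6 h are a share near that of all genes. Creld2 (2.08 ± 0.10) and the disulfide isomerase Pdia4 (1.90 ± 0.10) led with SW016789 at 6 h, and the co-chaperone Dnajb9 (1.69 ± 0.11) and Hspa5 (1.61 ± 0.10), which encodes BiP, with thapsigargin at 24 h. Hspa5 was already higher with SW016789 at 2 h (0.99 ± 0.10, adjusted p = 3.1e-09), a time at which no member was called. The chaperone Hsp90b1 had log2 fold changes of 1.24 ± 0.08 with SW016789 at 6 h and 0.15 ± 0.07 with thapsigargin (adjusted p = 7.5e-15 and 0.133).

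A list of 16 genes tied to collagen folding and modification in the ER held P3h1 and Crtap, whose proteins bind cyclophilin B. Of the 16, SW016789 raised 2 and lowered 1 at 6 h and raised 7 at 24 h. Thapsigargin lowered 8 and raised 0 at 6 h and raised 2 and lowered 4 at 24 h. The shares of all genes higher and lower were 4.19% and 2.85% at 6 h and 1.95% and 1.06% at 24 h with SW016789, and 8.06% and 8.73% at 6 h and 10.1% and 10.7% at 24 h with thapsigargin, so that the 2 raised at 24 h are a share near that of all genes. The medians of the 16 were 0.25 and 0.52 at 6 and 24 h with SW016789 and -0.29 and -0.01 with thapsigargin, beside 0.12, 0.06, 0.30 and 0.07 over all genes. P3h1, which binds cyclophilin B, was higher with SW016789 at 6 h (0.83 ± 0.15, adjusted p = 2.0e-04). The collagen galactosyltransferase Colgalt2 was lower with SW016789 at 6 h (-0.81 ± 0.19) and with thapsigargin at 24 h (-2.18 ± 0.20), and so was the lysyl hydroxylase Plod2 with thapsigargin at 24 h (-0.73 ± 0.10). P4hb, a disulfide isomerase and a subunit of the collagen prolyl hydroxylase, stands in this list and in that of chaperones.

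Among 27 prolyl isomerases of the cytosol, nucleus and mitochondria, SW016789 raised 1 at 6 h, the nucleoporin Ranbp2 (0.31 ± 0.09, adjusted p = 0.031), and 0 at 24 h. Thapsigargin raised 2 and lowered 3 at 6 h and raised 7 and lowered 3 at 24 h, with the spliceosomal cyclophilins Ppie (0.79 ± 0.16) and Cwc27 (0.66 ± 0.16) leading at 24 h. The 1 raised by SW016789 at 6 h is a share near that of all genes (4.19%), and at 24 h 1.95% of all genes were higher. With thapsigargin the 2 and 3 called at 6 h and the 3 lowered at 24 h are shares near those of all genes (8.06% and 8.73% at 6 h and 10.7% lower at 24 h). The 7 raised at 24 h stand beside 10.1% of all genes. The medians of the 27, 0.04 and -0.10 for SW016789 and 0.01 and 0.03 for thapsigargin, were all below those over all genes. Without the libraries above 25% intergenic reads, those over all genes were 0.01, 0.08, 0.10 and 0.11, a setting in which those of the 27 are not given.

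Of 10 sensors and transcription factors of the unfolded protein response, 8 were higher with SW016789 at 6 h and 5 at 24 h, and 8 and 9 with thapsigargin, with medians of 0.84, 0.38, 0.68 and 0.63 on the log2 scale in that order. Of all genes, 4.19%, 1.95%, 8.06% and 10.1% were higher in the same order, with medians of 0.12, 0.06, 0.30 and 0.07. Ddit3, which encodes CHOP, rose by 2.33 ± 0.21 with SW016789 at 6 h and by 3.12 ± 0.22 with thapsigargin at 24 h, and Atf4 by 1.41 ± 0.10 and 2.05 ± 0.10. Xbp1 mRNA was higher by 0.77 with SW016789 and by 0.73 with thapsigargin at 6 h. Of 10 β cell markers, 4 were lower with SW016789 at 6 h, led by the glucose transporter Slc2a2 (-1.16 ± 0.14) and Ucn3 (-0.71 ± 0.14), and 9 were lower with thapsigargin at 24 h, led by Ins1 (-3.03 ± 0.19) and Ins2 (-2.15 ± 0.13). The medians of the 10 β cell markers were -0.26 and -1.37, beside 0.12 and 0.07 over all genes, of which 2.85% and 10.7% were lower. Markers of other cells that the rule named were Krt7, lower with SW016789 at 6 h (-0.33 ± 0.10), and the islet hormone gene Gcg, lower with thapsigargin at 24 h (-2.28 ± 0.11).

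Genes with the most similar pattern were sought by Pearson r over the 13 group means of log2 CPM, among the 11271 genes averaging 5 CPM or more. These r values are descriptions across groups that share experiments and depth. Nearest to Fkbp11 were Zbtb7b (0.951), the ER degradation factor Edem2 (0.951) and the ER nucleotide exchanger Slc35b1 (0.951). Those nearest to Ppib were Tmbim4 (0.974), the ATP synthase gene Atp5g1 (0.972) and the ER selenoprotein gene Sep15 (0.967). Fkbp14 had Sra1 (0.940), Ergic1 of the ER-Golgi intermediate compartment (0.932) and the sulfate donor synthase Papss1 (0.930). Fkbp9 had the pyruvate kinase gene Pkm (0.990), the synuclein gene Sncb (0.988) and Tcf20 (0.984). Fkbp2 had the ribosomal protein genes Rps13 (0.959) and Rpl8 (0.954).

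Of the genes with few reads, Fkbp7 had Mrm1 (0.970), Sntg2 (0.965) and Irx5 (0.960), Fkbp10 the filamin gene Flnc (0.953), Dnah10 (0.923) and the calcium channel gene Ryr1 (0.916), and Ppic had Add2 (0.895), Ccdc85c (0.882) and Arsg (0.859). Among the 8 themselves the highest r was 0.855 between Fkbp2 and Ppib, that of Fkbp11 with Ppib was 0.709, and the lowest was -0.565 between Fkbp9 and Fkbp11.

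The start regions of the genes are shown because some members rose together with genes of the unfolded protein response. RefSeq start windows of GRCm38.p6, from 250 bases before to 50 after each annotated start, were found for 6 of the 8 genes, 10 windows in all. On both strands they were searched for the ER stress response elements ERSE and ERSE-II, the unfolded protein response element TGACGTGG and its inner core ACGTGG, which the longer element contains. None of the 10 windows held the first 3, which occurred in 0.119%, 0.0365% and 0.676% of all 32851 windows of that length. The core occurred in 4 of the 10 windows, 1 each of Ppib, Fkbp9, Fkbp14 and Fkbp11, and in 8.31% of all windows. A match of letters is a description and not a binding site.

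Ppib, which rose with SW016789 and at 6 h fell with thapsigargin, held the core at 2 places, the nearer 38 bases before its start. The stretch before the start, at chr9:66060044-66060168 on the plus strand, is printed 5′ to 3′ with the core in capitals.
Ppib: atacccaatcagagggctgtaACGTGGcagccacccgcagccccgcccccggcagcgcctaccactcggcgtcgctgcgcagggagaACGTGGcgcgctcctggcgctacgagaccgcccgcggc

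The other 3 matches are shown as 30 bases each on the strand of the gene, with capitals for the core or for its complement where it reads on the other strand. They are shown because the core stood in genes called in different directions, Fkbp11 higher with both treatments, Fkbp14 higher with SW016789 at 6 h and lower with thapsigargin, and Fkbp9 lower with thapsigargin. That of Fkbp11 lies at chr15:98727589-98727618, 22 bases after the second of its RefSeq starts, and the window of its outer start held none. That of Fkbp14 lies at chr6:54593147-54593176, 11 bases after the inner of its RefSeq starts, and that of Fkbp9 at chr6:56831903-56831932, 144 bases before its start.
Fkbp11: tttggcttggacACGTGGcaagctatccta
Fkbp14: ttagaaaaagtgCCACGTcttcctgggagt
Fkbp9: ctggatccgctgCCACGTaggagtctccat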

How the data were processed

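Raw counts per gene symbol were deposited by the authors beside Entrez identifiers and positions in mm10. The study's methods describe mapping with STAR and strand-aware counting of unique pairs with featureCounts. The submitters' processing notes give STAR 2.5.2b and Subread 1.5.1 where the methods give later versions, and sources differ on ribosomal RNA removal or an mRNA kit. Intergenic shares were taken from the deposited counts of reads by region. Normalized values filled 78 columns that were not used here. Groups and experiment numbers came from the labels.

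Genes passing filterByExpr were scaled with TMM and fitted in edgeR 4.0.16 (R 4.3.3) by the quasi-likelihood method, with 13 groups over all 39 libraries, and contrasts were tested two-sided. This main fit held no replicate block, so pairing by experiment number entered only in the alternatives with that block. Calls are at a Benjamini-Hochberg adjusted p below 0.05 over all genes, and errors of log2 fold changes are SE. The fit was tested on simulated data. The members and lists were chosen with earlier results of these data known. Besides the 8 members and the references Hspa5, Pdia4, Hsp90b1, Xbp1 and Ddit3, the named genes were the 2 called genes of each list with the largest change for SW016789 at 6 h and thapsigargin at 24 h, and the 3 genes most similar to each member, of which 1 is not reported here. P-values measure the spread between experiments with a cell line.

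By the series' design an experiment number marks 1 experiment of 13 samples, so the numbers pair the samples. Residuals from group means had a median r of 0.0577 over 234 library pairs of equal number (105 above 0.1) and -0.0271 over 468 others (137 above 0.1). Residuals cancel within a group, so the second value is tied to the first and is not a separate comparison. Libraries of a group were all further apart than sampling noise, with a lowest chi-square of 6.26 per degree of freedom over 39 pairs. Alternatives were DESeq2 1.42.0, its size factors in edgeR, no filter, the replicate block with and without the intergenic percent, only the libraries compared, no libraries above 25% intergenic reads (a limit from an earlier analysis) and each library left out.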

Additional observations from a re-analysis of the deposited data

Results flagged for a closer look

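In 8 tests an effect differed between times or between treatments over time, by edgeR's test of the difference itself over all genes. For Fkbp11 the effect over DMSO grew from 2 to 6 h by 2.11 ± 0.31 on the log2 scale with SW016789 and by 1.46 ± 0.31 with thapsigargin, the latter a call lost with only the libraries compared, and from 6 to 24 h by 1.22 ± 0.31 with thapsigargin. For Ppib the effect of thapsigargin grew from 6 to 24 h by 0.74 ± 0.14, and the difference of SW016789 from thapsigargin changed by -0.84 ± 0.14. For Fkbp2 these were 0.79 ± 0.23 and -0.75 ± 0.23, and both calls were lost without some single libraries, the second also with only the libraries compared. For Fkbp9 the difference between treatments changed by 0.62 ± 0.20, a call lost without most single libraries and with only the libraries compared. Groups of 3 libraries are too small for a test of single outlying values.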

How the results depend on the processing

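Of 2728 member values under the alternatives, the test of 4 times together left out, 2640 kept their direction and side of the threshold and 0 reversed a called direction. In the settings that left out no single library, 20 values newly passed the threshold and 12 no longer did. Counts as reported stand in parentheses after those under an alternative. With the replicate block that adds the intergenic percent, 1 member, Fkbp14, was called for SW016789 against DMSO at 2 h (0). With only the libraries compared, 2 members were called for SW016789 against thapsigargin at 6 h (5) and 0 for thapsigargin from 2 to 6 h (1). From 2 to 6 h, SW016789 had 2 members called (1) with DESeq2, with the replicate block, with the block and intergenic percent, and without the libraries above 25% intergenic reads, and thapsigargin had 2 (1) with the replicate block and 4 with the block and intergenic percent. The replicate block changed no other call than those named beside the results. With 1 library left out, counts ran from 1 to 2 for SW016789 against DMSO at 24 h, 2 to 5 for thapsigargin against DMSO at 24 h, 2 to 5 for SW016789 against thapsigargin at 6 h, 1 to 2 for either treatment from 2 to 6 h and 1 to 3 for the change between treatments from 6 to 24 h, with fewer samples in each fit. The cause of the other shifts was not tested.

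Over all genes, DESeq2 called 2414 for SW016789 at 6 h (1531 in edgeR), 1256 at 24 h (655) and 5880 for thapsigargin at 6 h (3653). For thapsigargin at 6 h these were 3807 higher and 2073 lower (1753 and 1900 in edgeR). The replicate block called 5952 there, 3604 higher and 2348 lower, and the block with intergenic percent 2419 and 1357 for SW016789 at 6 and 24 h. With that last fit the median of all genes moved from 0.30 to 0.04 on the log2 scale for thapsigargin at 6 h. Without the libraries above 25% intergenic reads, 1149 were higher and 256 lower for SW016789 at 6 h (911 and 620). Only the libraries compared gave 749 for SW016789 against thapsigargin at 6 h (2513). Counts over all genes that moved by over 1.5 times at early times ran from 36 to 371 for SW016789 at 1 h (81), 184 to 1315 at 2 h (562), 5 to 40 for thapsigargin at 1 h (10) and 33 to 1022 at 2 h (301), and for the treatments compared from 1 to 55 at 1 h (24) and 27 to 407 at 2 h (145). For the changes of effect they ran from 8 to 205 (58), 62 to 820 (287) and up to 914 (316) with SW016789 over the 3 steps, 2 to 74 (14), 195 to 1581 (695) and up to 2201 (1365) with thapsigargin, and 988 to 2768 (1822) for the change between treatments. The 4 times together gave up to 3170 (1966) and 10216 (6476) genes, and DMSO against baseline up to 7, 89, 11 and 12 genes (0, 2, 0 and 0), all without the fits that leave out 1 library. Those gave 41 to 84, 266 to 1638, 572 to 1155 and 297 to 516 genes for SW016789 against DMSO at 1, 2, 6 and 24 h, 4 to 15, 48 to 2745, 1673 to 3806 and 3054 to 3840 for thapsigargin, and for the treatments compared 5 to 23 at 1 h (24), as few as 35 at 2 h (145), 915 to 2581 at 6 h (2513) and 2358 to 3400 at 24 h (3924). Against DMSO, the highest counts at 2 h and the lowest at 6 h came without DMSO of experiment 1, and the lowest for thapsigargin at 2 h without thapsigargin of experiment 1 or 3. They gave 18 to 266, 45 to 697 and 80 to 277 genes for the steps with SW016789, 1 to 244, 153 to 1121 and 523 to 1490 with thapsigargin, 782 to 1897 for the change between treatments, 907 to 3119 and 4177 to 10181 for the 4 times together, and at most 1, 642, 0 and 0 for DMSO against baseline. The shares of all genes printed beside the members move with these counts. DESeq2 and only the libraries compared were not run for the 4 times together. With under 4 CPM in most libraries, Fkbp7, Fkbp10 and Ppic had standard errors of 0.64 to 1.19 against DMSO, so only changes of several fold could pass.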
